A study of Mus musculus with 36 samples.

Results

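PD03 was added to mouse embryonic stem cells (mESCs) on stiff StemBond hydrogels in serum + LIF, and RNA was sequenced after 48 h. The 3 libraries headed stiff, serum + LIF + PD03 were compared with the 3 headed stiff, serum + LIF, which makes 6 of the 36 libraries of the series. The libraries were chosen by the headings of their columns, and no measured value entered the choice. All 6 carried the strain label 129m wt, fibronectin-coated stiff gels, serum, LIF and 48 h of culture, so that PD03 was the stated difference between the groups. StemBond hydrogels are polyacrylamide gels that hold matrix protein by covalent tethers, LIF is leukaemia inhibitory factor, and PD03 is PD0325901, a small molecule that blocks the kinase MEK. The rest of the series holds soft gels and tissue culture plastic, media without LIF, and libraries from 24 h. Of these, the response to PD03 without LIF on stiff gels (3 libraries in serum + PD03 and 3 in serum) and the response to PD03 with LIF on soft gels (3 in serum + LIF + PD03 and 3 in serum + LIF) were set beside the response of interest. Nothing in the labels said that the libraries of a group came from separate cultures, so p-values measure the spread between libraries of a group, which may be technical. That spread was estimated over the groups of all 36 libraries.

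MEK activates ERK, the last kinase of a cascade that carries signals from FGF4 and other receptor tyrosine kinase ligands through RAS and RAF. In mESCs ERK activity prepares cells to leave the naive state, the state of the pre-implantation epiblast, whereas LIF holds them there through JAK kinases and STAT3. ERK also switches on its own inhibitors, the Sprouty, Spred and Dusp proteins, whose transcripts are common readouts of the pathway.

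Total counts were 13929917 to 19412658 in serum + LIF and 20284578 to 24800445 with PD03. Levels are given as CPM, the read count of a gene relative to the library's total, scaled to a fixed total after adjustment with TMM factors. The log2 CPM of libraries correlated across genes with r of 0.987 to 0.991 within the groups and 0.943 to 0.947 between them. Of 10 genes that define mESCs, the lowest mean level in either group was 103 CPM (Utf1 with PD03), and Pou5f1, which encodes OCT4, was at 582 to 612 CPM in serum + LIF and 568 to 595 CPM with PD03. Mitochondrial transcripts took 1.11 to 1.25% of the counts in serum + LIF and 1.32 to 1.54% with PD03. Without mitochondrial genes and the gene model Gm26917, 9892 genes passed the main test described below in place of 9945. In the libraries set beside these, library 2 of stiff serum and library 2 of soft serum + LIF stood apart, with 0.574% and 0.626% mitochondrial counts against 1.06 to 2.92% in every other library of the series. The sample descriptions placed 1 of the 3 serum + LIF libraries in another sequencing pool than the other 5, without showing which column it was. In RNA from whole cultures, fewer cells of a type and less RNA per cell cannot be told apart.

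PD03 moved a large share of the measured transcriptome. Of 17702 genes tested, 9945 (56.2%) passed an adjusted p of 0.05 in edgeR's quasi-likelihood test, 5017 higher with PD03 (28.3%) and 4928 lower (27.8%). Genes past this threshold are called below, and the counts of called members in each gene list are to be read beside these shares. Many of these changes were small, as 4401 of the calls (44.3%) were under 1.5-fold. At least 2-fold changes were called for 2037 genes higher (11.5%) and 1394 lower (7.87%), at least 4-fold for 727 and 506, and at least 8-fold for 282 and 194. The median log2 fold change over all tested genes was -0.010. The split of the calls depended on the scaling, with 4634 higher, 5503 lower and a median of -0.062 under upper quartile factors. The 2 groups of 3 libraries did not overlap for 11128 genes (62.9%). The share called rose with the level of the genes, from 25.6% of genes under 1 CPM to 77.6% above 100 CPM. Changes of at least 2-fold were called for 25.3% and 8.08% of the same genes. Of the genes at least 2-fold higher 88.7% were protein-coding, with a median level of 3.90 CPM, and of those at least 2-fold lower 82.3%, with a median of 2.23 CPM. The genes called at under 2-fold, 6514 in all, had a median of 39.9 CPM. Below, values in parentheses are log2 fold changes ± SE with 3 libraries per group, and libraries are given in the order of their columns. The SE is the size of the log2 fold change divided by the square root of the test's F statistic. It thus draws on the spread within groups over all 36 libraries.

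**Figure D1:**
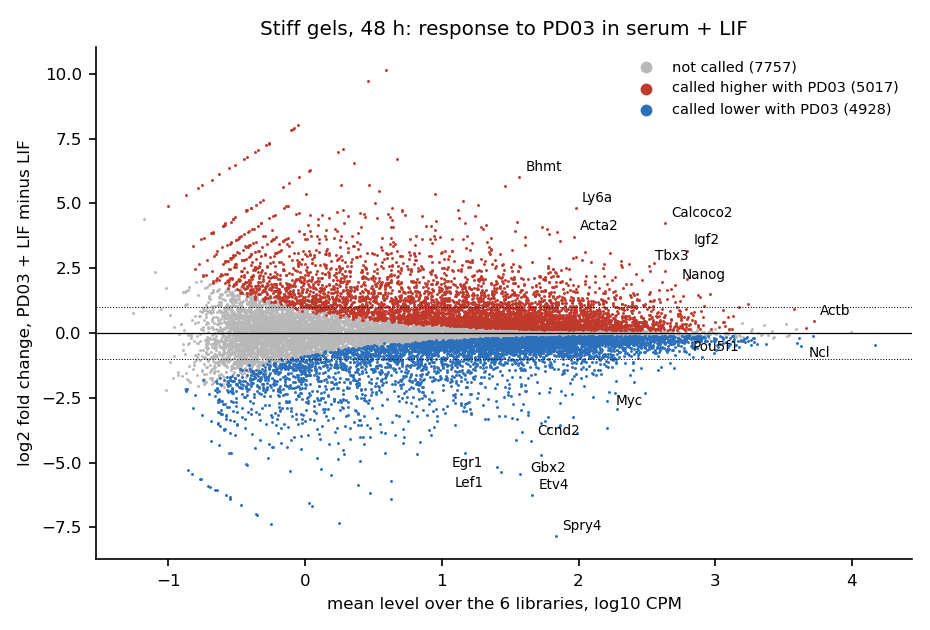
Each point is 1 of 17702 tested genes, with its mean level over the 6 libraries on the x axis (log10 CPM) and its log2 fold change with PD03 on the y axis. Red points were called higher (5017), blue points lower (4928), grey points were not called, and dotted lines mark 2-fold. Spry4 lies lowest among the labelled genes at -7.82, Bhmt highest at 6.02, and Pou5f1 lies near 0. The slanted stripes at low levels are genes with few or no counts in 1 group, whose fitted fold changes are not bounds.

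The transcripts of ERK's own inhibitors fell. Of 20 tested genes in the list of ERK feedback inhibitors, 14 were called lower, 3 higher and 3 were not called, with a median log2 fold change of -0.97. Among all tested genes 27.8% were called lower and 28.3% higher. Spry4, a Sprouty protein that restrains RAS activation, was at 137, 144 and 129 CPM in the 3 serum + LIF libraries and at 0.596, 0.197 and 0.925 CPM with PD03. Each PD03 library was below 1 CPM and each serum + LIF library above 100 CPM. The log2 fold change was -7.82 ± 0.13 (SE, n = 3 per group, edgeR adjusted p = 7.2e-42). Dusp6, the cytoplasmic phosphatase that acts on ERK, was at 76.7, 75.6 and 77.3 CPM and fell to 6.95, 9.05 and 9.77 CPM (-3.15 ± 0.10, edgeR adjusted p = 1.1e-31). Spred1, which brings neurofibromin to RAS, was at 103, 103 and 102 CPM and then at 10.3, 8.65 and 10.5 CPM (-3.38 ± 0.084, edgeR adjusted p = 7.6e-36). For these 3 genes the libraries of the groups lay far apart. The fold changes of the other Sprouty and Spred genes ran from -1.09 (Spred2) over -1.91 (Spred3) and -2.30 (Spry2) to -2.86 (Spry1), so Spry4 fell furthest of the Sprouty and Spred genes tested. Among the dual-specificity phosphatases, Dusp4 also fell (-2.49 ± 0.12), while Dusp5, Dusp7 and Dusp9 fell by less than 2-fold. Dusp14 (2.02 ± 0.12) and Dusp10 (0.93 ± 0.15), a phosphatase of the stress kinases, rose. Dusp1 was at 30.2, 35.8 and 34.8 CPM and at 36.5, 33.3 and 34.03 CPM with PD03, so that the groups overlapped, and it was not called (edgeR adjusted p = 0.72). Errfi1, an inhibitor of EGF receptors, likewise gave 0.079 ± 0.083 with overlapping groups.

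Genes that ERK induces, mostly transcription factors, moved in both directions. Of 23 tested, 12 were called lower and 7 higher, with a median of -0.60. Etv4, an ETS factor, was at 85.04, 93.0 and 92.6 CPM in serum + LIF and at 0.695, 2.16 and 0.724 CPM with PD03 (-6.27 ± 0.14, edgeR adjusted p = 2.6e-37). Egr1, a zinc finger factor of the immediate-early response, was at 47.7, 54.1 and 46.4 CPM and 1.74, 0.934 and 1.41 CPM (-5.17 ± 0.15, edgeR adjusted p = 4.1e-33). All 3 PD03 libraries lay below 3 CPM for both genes. The related Etv5 kept most of its level, at 388, 391.96 and 388 CPM against 239, 251 and 243 CPM (-0.67 ± 0.047), and Etv1 fell further (-1.21 ± 0.072). Myc, a driver of growth and ribosome production, was at 273, 284 and 276 CPM and dropped to 49.8, 43.4 and 42.0 CPM (-2.63 ± 0.065, edgeR adjusted p = 1.0e-35). Its relative Mycn was at 253, 260.1 and 263 CPM and 135, 134 and 135 CPM (-0.94 ± 0.045). Neither gene's groups overlapped. The AP-1 genes did not move one way. Fosl1 fell (-2.21 ± 0.22) and Junb fell (-0.56 ± 0.10), while Jun (1.48 ± 0.10), Jund (0.96 ± 0.070), Fosl2 (1.34 ± 0.10) and the stress-induced Atf3 (1.74 ± 0.23) rose. Fos, with at most 2.16 CPM in any of the 6 libraries, was not called (0.51 ± 0.33, edgeR adjusted p = 0.19).

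Upstream of MEK, ligands and receptors moved in both directions. Fgf4, the main FGF that mESCs make, was at 134, 124 and 136 CPM in serum + LIF and at 285, 284 and 278 CPM with PD03 (1.10 ± 0.059, edgeR adjusted p = 6.2e-22). Every PD03 library held about the same excess. Fgf5 (-3.97), Fgf15 (-3.06), Fgf17 (-2.57) and Fgf1 (-4.01), all under 20 CPM, fell, whereas Fgf10 rose (1.78 ± 0.17). The receptors Fgfr1 (0.89 ± 0.045) and Fgfr2 (0.52 ± 0.067) rose and Fgfr3 fell (-1.09 ± 0.31). In all, 4 of 15 tested FGF ligands and receptors were called higher and 5 lower. That share of calls (60%) was near the 56.2% of all tested genes. Of 28 tested members of the RAS, RAF, MEK and ERK cascade, 12 were called higher and 9 lower, with a median of 0.048. Map2k1, which encodes MEK1, rose (0.54 ± 0.080), Map2k2, which encodes MEK2, did not pass (-0.054 ± 0.050), and Mapk3, which encodes ERK1, fell (-0.50 ± 0.057). The largest falls in this list were in Elk3 (-1.43 ± 0.15), Nras (-0.85 ± 0.051) and Braf (-0.77 ± 0.062), and the largest rises in Rras (1.16 ± 0.090) and the scaffold Ksr1 (1.15 ± 0.077). Other receptor tyrosine kinases and their adaptors were more often higher, with 14 of 21 called higher and 5 lower. Kit, the receptor for stem cell factor, was at 43.2, 39.2 and 39.4 CPM and at 183, 187 and 185 CPM with PD03 (2.19 ± 0.064, edgeR adjusted p = 6.2e-33). Erbb3, a partner of the EGF receptor family, was at 27.6, 30.4 and 32.5 CPM and 124, 115 and 115 CPM (1.964 ± 0.065, edgeR adjusted p = 1.6e-30). Both rose with a wide gap between the groups.

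**Figure D2:**
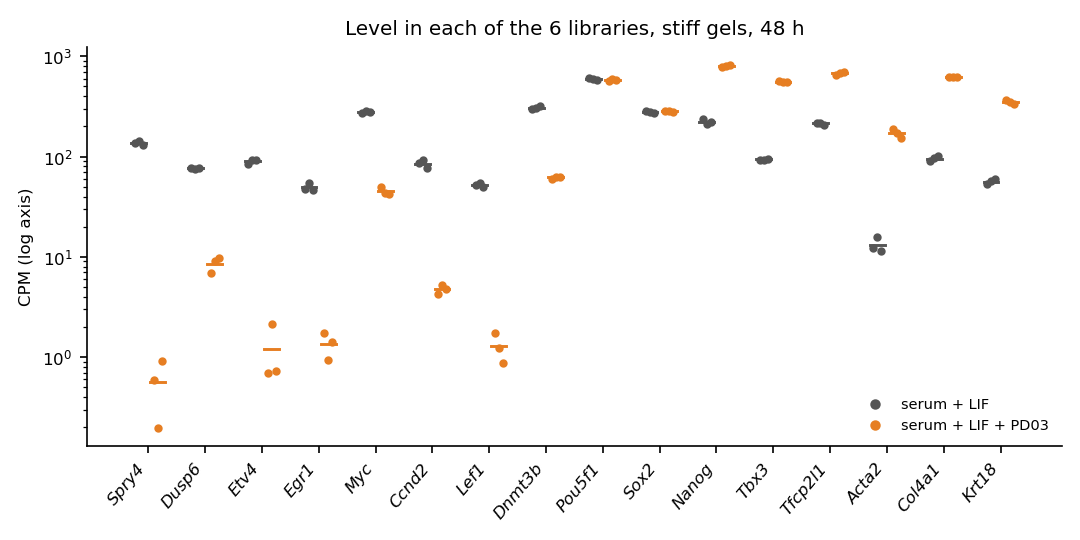
Level of 16 genes in each of the 6 libraries, in CPM on a log axis, with serum + LIF in grey and serum + LIF + PD03 in orange. Points are libraries and bars are group means. The groups overlap for Pou5f1 and Sox2, lie apart for every other gene shown, and reach their widest gap at Spry4.

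Most naive pluripotency genes rose with PD03, with LIF present in both groups. Of 20 tested, 14 were called higher, 5 lower and 1 was not called, with a median of 0.53. Nanog, a homeodomain factor of the naive network, was at 235, 212 and 219 CPM in serum + LIF and at 777, 793 and 816 CPM with PD03 (1.84 ± 0.058, edgeR adjusted p = 1.8e-31). Tbx3, a T-box factor that supports self-renewal, was at 92.7, 93.3 and 95.3 CPM and 561, 559.7 and 559.8 CPM (2.58 ± 0.050, edgeR adjusted p = 1.1e-39). Tfcp2l1, a target of STAT3, was at 218, 218 and 207 CPM and 645, 680.2 and 698 CPM (1.66 ± 0.051, edgeR adjusted p = 5.0e-32). All 3 rose in every PD03 library, and for Tbx3 the PD03 libraries differed from each other by about 1 CPM. Prdm14, a repressor of de novo methylation and FGF signalling, was at 8.11, 6.89 and 7.27 CPM and 39.9, 41.4 and 43.5 CPM (2.49 ± 0.11). Klf2 (1.06 ± 0.061) rose more than Klf4 (0.62 ± 0.046), and Klf5 fell (-0.58 ± 0.063). Esrrb was at 329, 323 and 329.5 CPM and 375, 384 and 376 CPM, a small rise (0.21 ± 0.046, edgeR adjusted p = 9.9e-05) without overlap. Zfp42, which encodes REX1, was at 535, 505 and 493 CPM and 484, 482 and 477 CPM and was not called (-0.088 ± 0.055, edgeR adjusted p = 0.18). Gbx2, a homeobox gene that ERK and LIF both feed, fell furthest in the list. It was at 76.0, 70.4 and 72.2 CPM in serum + LIF and at 1.69, 1.28 and 1.93 CPM with PD03 (-5.46 ± 0.10, edgeR adjusted p = 1.7e-40). Nr0b1, which encodes DAX1, also fell (-1.78 ± 0.063), and Stat3 itself fell slightly (-0.37 ± 0.056).

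General pluripotency genes did not follow the naive genes. Of 14 tested, 4 were called higher and 7 lower, with a median of -0.081. Sox2 was at 286, 279 and 273 CPM and 284, 285 and 280.4 CPM, so that the groups overlapped (0.021 ± 0.045, edgeR adjusted p = 0.71), and the log2 fold change of Pou5f1 was -0.033 ± 0.067 (edgeR adjusted p = 0.71). Utf1, a chromatin factor of pluripotent cells, was at 503, 542 and 499.6 CPM and fell to 110.2, 96.0 and 102 CPM (-2.33 ± 0.056, edgeR adjusted p = 3.0e-36). Lin28a, an RNA-binding protein that rises on exit from the naive state, fell (-1.14 ± 0.053), as did Dppa4 (-1.22 ± 0.057). Sall4 (0.42 ± 0.047), Dppa5a (0.49 ± 0.046) and Cdh1 (0.28 ± 0.046) rose, the last being E-cadherin.

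Genes of the formative and primed epiblast were mostly lower. Of 22 tested, 16 were called lower and 3 higher, 14 of the falls were at least 2-fold, and the median was -1.37. Lef1, a transcription factor of the Wnt pathway, was at 52.6, 55.0 and 50.2 CPM in serum + LIF and at 1.74, 1.23 and 0.885 CPM with PD03 (-5.38 ± 0.14, edgeR adjusted p = 5.9e-35). Pou3f1, which encodes OCT6, was at 47.9, 48.0 and 45.5 CPM and 4.77, 6.74 and 4.10 CPM (-3.19 ± 0.11, edgeR adjusted p = 1.8e-29). Tcf15, a helix-loop-helix factor that marks primed cells, was at 93.2, 106 and 94.3 CPM and 9.09, 8.70 and 8.85 CPM (-3.46 ± 0.10, edgeR adjusted p = 1.5e-33). None of the 3 genes had overlapping groups, and the PD03 libraries all lay below 10 CPM. Grhl2, a factor of epithelial enhancers, fell too (-2.45 ± 0.089). Otx2, the factor that directs formative enhancers, went the other way, at 18.2, 17.4 and 16.1 CPM and then 33.1, 34.7 and 33.2 CPM (0.97 ± 0.10, edgeR adjusted p = 1.8e-12). Foxd3 (0.39 ± 0.063) and Zic2 (0.32 ± 0.071) rose by less than 1.5-fold.

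Genes of the LIF and STAT3 pathway moved in both directions. Of 20 tested, 9 were called higher and 6 lower, with a median of 0.070. The receptor genes Lifr (-0.10 ± 0.045, called by DESeq2) and Il6st, which encodes gp130 (0.041 ± 0.048), were not called in edgeR. The cytokine gene Lif was at 3.13, 3.48 and 3.48 CPM in serum + LIF and at 12.2, 11.9 and 11.7 CPM with PD03 (1.82 ± 0.16, edgeR adjusted p = 2.0e-14), and Jak2 also rose (1.29 ± 0.16). Among the targets, Socs3, the feedback inhibitor of the receptor, was at 78.6, 83.1 and 81.9 CPM and 56.6, 55.3 and 54.1 CPM (-0.55 ± 0.071, edgeR adjusted p = 2.7e-09), and Socs2 fell further (-1.98 ± 0.075). Of these genes Il6st alone had overlapping groups.

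Enzymes that write new DNA methylation fell. Dnmt3b, a de novo methyltransferase, was at 299, 306 and 319 CPM in serum + LIF and at 60.3, 63.0 and 62.7 CPM with PD03 (-2.31 ± 0.066, edgeR adjusted p = 2.3e-33). Dnmt3l, its catalytically inactive partner, was at 199, 207 and 199.98 CPM and 70.0, 67.2 and 61.5 CPM (-1.61 ± 0.064), and Dnmt3a fell to a like degree (-1.32 ± 0.058). The maintenance methyltransferase Dnmt1 was at 394, 398 and 401 CPM and 383, 394 and 391 CPM and was not called (-0.030 ± 0.044, edgeR adjusted p = 0.59). Of the enzymes that oxidise methylcytosine, Tet2 rose from 391, 415 and 378 CPM to 1097, 1082 and 1099 CPM (1.47 ± 0.059, edgeR adjusted p = 4.7e-27), while Tet1 fell (-0.47 ± 0.061) and Tet3 rose slightly (0.32 ± 0.071). Over the whole list of 16 genes, 6 were called higher and 8 lower. Germline genes that methylation keeps silent were mixed, with 9 of 23 tested called higher and 6 lower. In all 65.2% of them were called, against 56.2% of all tested genes. Dazl, an RNA-binding protein of germ cells, rose (1.07 ± 0.11) and so did the bromodomain gene Brdt (1.57 ± 0.25), whereas Ddx4 fell (-0.61 ± 0.12). Tuba3a (1.503 ± 0.083) and Tuba3b (3.06 ± 0.37) rose as well, but these near-identical tubulin genes can share reads.

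G1 cell cycle genes moved in both directions, with the D-type cyclin Ccnd2 falling most. Of 19 G1 cyclins, kinases and inhibitors tested, 11 were called higher and 7 lower, and 7 of the calls were at least 2-fold. Ccnd2, a D-type cyclin, was at 86.7, 91.8 and 77.0 CPM in serum + LIF and at 4.27, 5.21 and 4.79 CPM with PD03 (-4.16 ± 0.092, edgeR adjusted p = 1.1e-37). Ccnd1, the D-type cyclin best known as an ERK target, fell less (-1.44 ± 0.051), and Ccnd3 rose (0.55 ± 0.055). Cdk6, a partner of D-type cyclins, fell (-2.26 ± 0.077). Cdkn1b, which encodes the inhibitor p27, was at 11.2, 12.2 and 11.4 CPM and 43.2, 46.5 and 42.6 CPM (1.93 ± 0.10, edgeR adjusted p = 3.3e-23), and Cdkn1a, which encodes p21, rose (1.16 ± 0.080). Of 22 S and M phase genes, 3 were called higher and 8 lower, none by 2-fold, and 11 were not called. The share called was 50%, against 56.2% of all tested genes. With only the compared groups in the fit, 5 were called higher and 10 lower. Pcna, the sliding clamp of DNA polymerase, fell most (-0.61 ± 0.058), and Mki67 was at 896, 997 and 964 CPM and 1071, 1022 and 1069 CPM without a call (0.15 ± 0.069, edgeR adjusted p = 0.069). In the list of cell death genes, 9 of 15 were called lower and 4 higher. Bcl2l11, which encodes the killer protein BIM, was at 41.5, 41.7 and 42.2 CPM and 12.7, 13.5 and 14.2 CPM (-1.63 ± 0.072, edgeR adjusted p = 2.0e-25), so it was lower in each PD03 library, and the survival gene Mcl1 fell by less (-0.49 ± 0.047).

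Every ribosome biogenesis gene on the list fell, each by less than 2-fold. All 26 tested members were called lower, with a median of -0.54, and their summed level went from 16506 to 11915 CPM. Ncl, which encodes nucleolin, was at 4960.4, 5137 and 4794 CPM in serum + LIF and at 3529, 3470.1 and 3396 CPM with PD03 (-0.52 ± 0.042, edgeR adjusted p = 3.5e-15). Nolc1, a nucleolar chaperone, was at 806, 835 and 791 CPM and 464, 463 and 468 CPM (-0.80 ± 0.045), and Gnl3, which encodes nucleostemin, gave the largest fall (-0.94 ± 0.047). The 3 libraries of each group lay close together for these genes. Under alternative scalings of the libraries the count stayed at 26.

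Within each metabolic pathway some enzymes rose and others fell. In glycolysis 6 of 21 tested genes were called higher and 10 lower. Pdk1, the kinase that holds pyruvate dehydrogenase inactive, was at 138, 129 and 132 CPM in serum + LIF and at 8.84, 10.8 and 12.2 CPM with PD03 (-3.64 ± 0.077, edgeR adjusted p = 1.6e-38). Transcripts of the 2 lactate dehydrogenase subunits moved in opposite directions. Ldha went from 1038, 1069 and 1041 CPM to 548, 544 and 546 CPM (-0.94 ± 0.047). Ldhb went from 87.3, 91.3 and 83.1 CPM to 212, 209 and 209.7 CPM (1.27 ± 0.063). Neither subunit's groups overlapped. Hk1 (1.72 ± 0.059) and the glucose transporter Slc2a3 (0.92 ± 0.053) rose, while Hk2 (0.063 ± 0.046) was not called. Among 23 genes of cholesterol and fatty acid synthesis, 5 were called higher and 11 lower, with Idi1 lower (-1.11 ± 0.082) and the desaturase Scd1 higher (1.49 ± 0.073). Among 23 genes of serine, one-carbon and amino acid metabolism, 7 were called higher and 9 lower. Bhmt, which remakes methionine from homocysteine with betaine, was at 1.21, 1.18 and 0.972 CPM and 74.9, 69.4 and 72.0 CPM (6.02 ± 0.16, edgeR adjusted p = 3.7e-34). Its neighbour Bhmt2 rose too (4.597 ± 0.31), though reads of these similar genes may be shared. Asns, asparagine synthetase, rose (1.10 ± 0.058) and Phgdh, the entry to serine synthesis, fell (-0.86 ± 0.072).

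**Figure D3:**
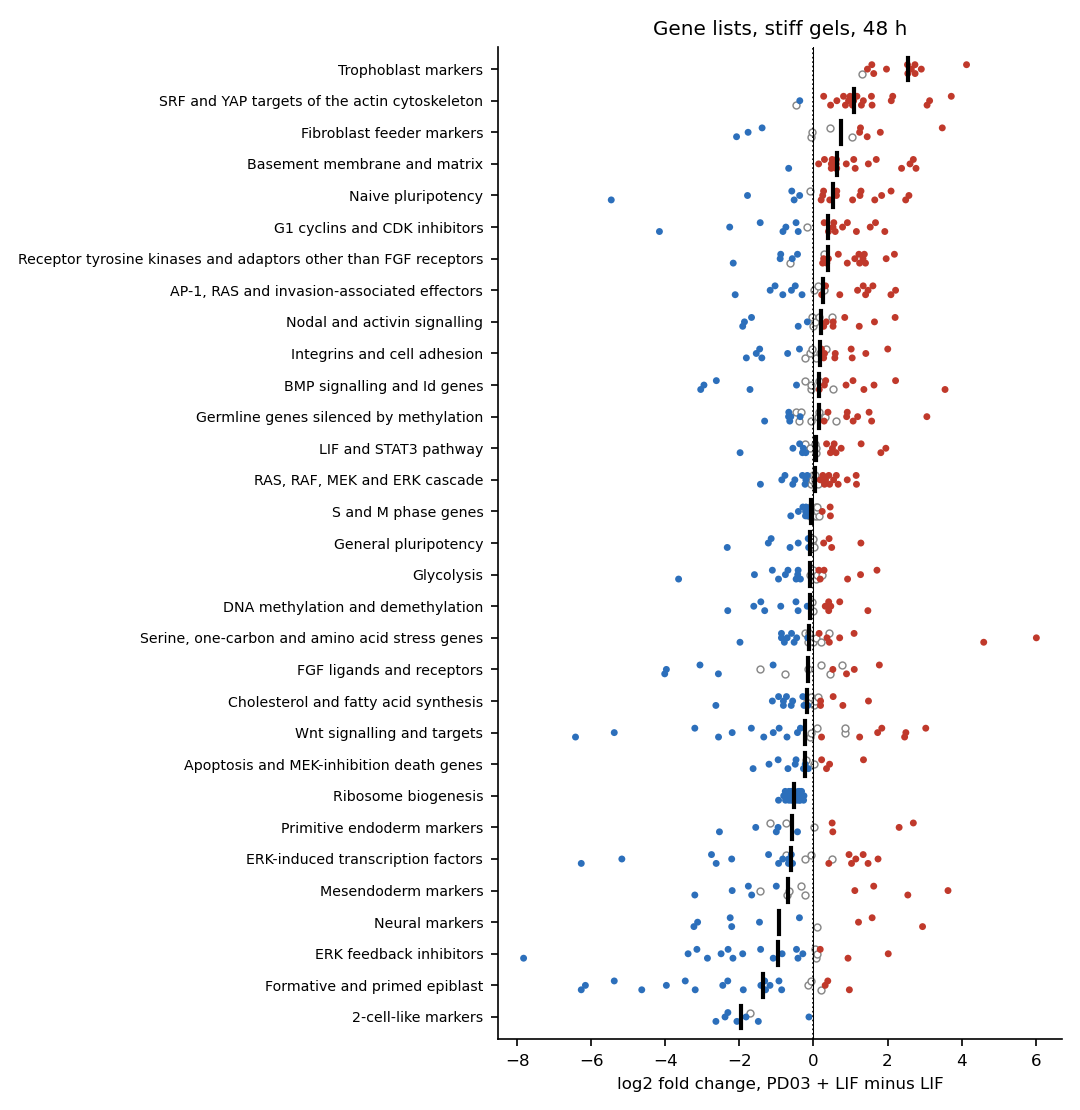
Each row is 1 gene list, each point the log2 fold change of 1 tested member with PD03, and each black bar the median of the list. Filled points were called (red higher, blue lower), open points were not, and the dotted line marks the median of all tested genes. The medians run from -1.94 for the 2-cell-like markers to 2.54 for the trophoblast markers.

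Actin and smooth muscle type genes that SRF and YAP drive rose. SRF, with its actin-sensing partner MRTF, binds CArG boxes, and YAP acts through TEAD factors, and both respond to cell tension. Of 21 tested genes of this list 19 were called higher, 12 of them at least 2-fold, and 1 lower, with a median of 1.09. Acta2, smooth muscle actin, was at 12.3, 15.7 and 11.4 CPM in serum + LIF and at 189, 173 and 153 CPM with PD03 (3.72 ± 0.12, edgeR adjusted p = 5.9e-31). Acta1, skeletal muscle actin, was at 4.41, 3.27 and 5.63 CPM and 43.1, 40.4 and 36.1 CPM (3.14 ± 0.13, edgeR adjusted p = 1.4e-26). Reads of these near-identical actins can be assigned to the wrong member, and both showed wide gaps between the groups. Myl9, a myosin light chain, was at 11.7, 11.1 and 12.5 CPM and 56.9, 51.7 and 47.9 CPM (2.14 ± 0.091), and Tagln, which encodes transgelin, was at 6.68, 6.54 and 7.57 CPM and 29.3, 32.4 and 28.2 CPM (2.10 ± 0.13). Tpm1 (1.30 ± 0.048), Cnn2 (1.58 ± 0.062), Vcl (0.95 ± 0.050) and Flna (0.63 ± 0.046), which bind or bundle actin filaments, rose as well. The abundant cytoplasmic actins rose less, Actb from 4371, 4505 and 4352 CPM to 6225, 6016 and 5996 CPM (0.46 ± 0.044) and Actg1 by 0.28 ± 0.059. Of the YAP targets, Ccn1 was at 56.2, 51.1 and 58.5 CPM and 131, 126 and 118 CPM (1.17 ± 0.092), and Ccn2 (1.05 ± 0.052) and Amotl2 (1.35 ± 0.073) rose alike. Srf rose by 0.42 ± 0.048. Ajuba fell (-0.37 ± 0.058), and Vil1, under 1 CPM, was not called (-0.48 ± 0.52).

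The upstream sequences of 4 of these genes are shown because each holds a CArG box, the letters CC, then 6 of A or T, then GG. They are the 250 bases before the RefSeq start of the gene, read in the gene's direction on GRCm38.p6, with the CArG box in capitals. The intervals are chr8:123894776-123895025 on the minus strand for Acta1 and, on the plus strand, chr2:156775214-156775463 for Myl9, chr10:79988350-79988599 for Cnn2 and chr14:20929148-20929397 for Vcl. The box begins 73 bases before the start in Acta1, 161 in Myl9, 56 in Cnn2 and 227 in Vcl.
Acta1: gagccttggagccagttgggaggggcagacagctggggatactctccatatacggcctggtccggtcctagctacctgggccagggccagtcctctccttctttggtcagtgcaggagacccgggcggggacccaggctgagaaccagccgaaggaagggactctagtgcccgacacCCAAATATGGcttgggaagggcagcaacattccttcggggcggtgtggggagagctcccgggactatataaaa
Myl9: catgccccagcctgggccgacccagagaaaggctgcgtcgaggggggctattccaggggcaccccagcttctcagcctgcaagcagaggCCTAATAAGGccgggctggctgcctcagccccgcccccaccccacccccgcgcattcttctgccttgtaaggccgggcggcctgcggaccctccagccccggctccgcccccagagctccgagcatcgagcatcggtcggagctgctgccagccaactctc
Cnn2: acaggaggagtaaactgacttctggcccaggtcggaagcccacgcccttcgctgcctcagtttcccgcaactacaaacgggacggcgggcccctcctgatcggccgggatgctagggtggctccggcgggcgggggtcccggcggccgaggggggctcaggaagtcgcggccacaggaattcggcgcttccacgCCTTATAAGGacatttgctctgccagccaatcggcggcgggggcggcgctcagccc
Vcl: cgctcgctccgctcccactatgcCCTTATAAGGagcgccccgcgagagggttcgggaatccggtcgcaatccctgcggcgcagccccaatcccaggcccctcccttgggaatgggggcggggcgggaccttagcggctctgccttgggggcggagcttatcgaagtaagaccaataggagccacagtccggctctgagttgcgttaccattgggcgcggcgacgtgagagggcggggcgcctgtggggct
A CArG box on either strand was found in 6 of the 17 members with a window (35.3%), in 142 of the 11989 windows of tested genes (1.18%), in 1.86% of windows of genes at least 2-fold higher and in 1.01% of those at least 2-fold lower. The list was drawn up as SRF and YAP targets, so its share describes the list and is no finding. The TEAD letters GGAATG, on either strand, were found in 10 of the 17 members (58.8%), in 10.9% of all windows, and in 14% and 12% of the windows of genes at least 2-fold higher and lower. The ETS letters CCGGAAG were found in 12.8% of all windows, 4.2% of those of genes at least 2-fold higher and 5.72% of those at least 2-fold lower, and in 1 of 17 windows of the ERK feedback inhibitors. These are matches of letters, and a window without them says nothing about binding.

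The matrix around the cells changed at the transcript level. Of 19 basement membrane and matrix genes tested, 18 were called higher and 1 lower, with a median of 0.63. Col4a1, a chain of collagen IV, was at 89.7, 95.8 and 101 CPM in serum + LIF and at 615, 625 and 620.5 CPM with PD03 (2.70 ± 0.058, edgeR adjusted p = 2.9e-38). Col4a2, the gene that shares its promoter region, was at 48.4, 54.4 and 53.0 CPM and 363, 347 and 354 CPM (2.77 ± 0.064). Nid1, which links laminin to collagen IV, was at 133, 146 and 133 CPM and 720.0, 703 and 723 CPM (2.38 ± 0.049, edgeR adjusted p = 3.9e-39). All 3 genes rose more than 4-fold without overlap. Fn1, which encodes the cells' own fibronectin, was at 1048, 1128 and 1079 CPM and 2393, 2295 and 2423 CPM (1.13 ± 0.046), and Sparc rose (1.70 ± 0.056). The paper names human plasma fibronectin as the coating of the gels. The laminin chains rose less, from 0.14 ± 0.055 for Lamb1, whose call was lost when any of 4 of the 6 libraries was left out (edgeR adjusted p of 0.052 to 0.089), to 1.48 ± 0.077 for Lamb2, and Col18a1 fell (-0.67 ± 0.047). Of 21 integrin and adhesion genes, 9 were called higher and 6 lower. Itgb3, a subunit of a vitronectin and fibronectin receptor, was at 4.91, 4.10 and 4.35 CPM and 18.8, 16.5 and 18.3 CPM (2.01 ± 0.12, edgeR adjusted p = 1.3e-19), its partner Itgav rose (1.05 ± 0.061), and Itgb1 was not called (-0.038 ± 0.054). Epcam, an adhesion molecule of mESC colonies, was at 99.7, 109 and 99.3 CPM and 40.4, 36.8 and 39.9 CPM (-1.39 ± 0.061), while Cldn4, a tight junction claudin, rose (1.41 ± 0.069). In the list of AP-1 and invasion-associated genes, 10 of 20 were called higher and 7 lower, with Anxa2 (2.22 ± 0.087), Timp3 (2.09 ± 0.12) and S100a11 (1.47 ± 0.11) higher and Mmp9 (-1.17 ± 0.27), Plaur (-0.59 ± 0.094) and Cd44 (-1.04 ± 0.26) lower.

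Other pathways of the epiblast moved in parts. In the BMP list 9 of 19 genes were called higher and 5 lower. Bmp4 was at 80.6, 73.5 and 74.8 CPM in serum + LIF and at 10.3, 8.95 and 8.57 CPM with PD03 (-3.04 ± 0.10, edgeR adjusted p = 2.2e-30). Id1, an inhibitor of differentiation that BMP induces, was at 69.7, 64.8 and 65.6 CPM and 6.95, 10.2 and 8.57 CPM (-2.96 ± 0.12, edgeR adjusted p = 3.7e-27), and Id3 fell too (-1.71 ± 0.077). These 3 genes were lower in each PD03 library. Gata2 went the other way, at 9.10, 11.5 and 13.4 CPM and 138, 135 and 131 CPM (3.55 ± 0.10). In the Nodal list 8 of 18 were called higher and 5 lower. Nodal itself rose a little (0.53 ± 0.070), Pcsk6, a convertase that processes it, rose more (2.21 ± 0.051), and the antagonist Lefty1 (-1.67 ± 0.11) and the repressor Skil (-1.86 ± 0.051) fell. In the Wnt list 7 of 24 were called higher and 12 lower. Sp5, a direct Wnt target, was at 7.75, 7.86 and 9.62 CPM and 0.149, 0.0492 and 0.0804 CPM (-6.42 ± 0.34, edgeR adjusted p = 3.8e-22), and Axin2, which ends the signal, fell (-0.93 ± 0.083). Tcf7l1, a repressor of Wnt targets in mESCs, was at 189.8, 201 and 197 CPM and 483, 439.6 and 474 CPM (1.25 ± 0.049), and Apcdd1 (3.03 ± 0.10) and Dkk1 (2.495 ± 0.14), inhibitors of Wnt, rose.

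Markers of other cell types were counted because cultures can hold differentiated cells. Of 12 tested trophoblast markers 11 were called higher and 1 was not called, with a median of 2.54, and their summed level rose from 204 to 239 CPM in serum + LIF to 1115 to 1193 CPM with PD03. Krt18, a keratin of simple epithelia, was at 52.8, 56.6 and 59.2 CPM and 364, 354 and 338 CPM (2.64 ± 0.072, edgeR adjusted p = 4.2e-34), and its partner Krt8 was at 54.3, 58.6 and 69.0 CPM and 361, 359 and 342 CPM (2.54 ± 0.079). Gata3, a trophectoderm factor, was at 14.4, 15.2 and 13.5 CPM and 113, 101 and 109 CPM (2.91 ± 0.085, edgeR adjusted p = 8.2e-33). The defining factors Cdx2 and Elf5 stayed low, Cdx2 at 1.99, 2.99 and 4.14 CPM and 10.5, 9.05 and 9.37 CPM (1.63 ± 0.20) and Elf5 under 1 CPM in all 6 libraries. Krt8 and Krt18 thus held most of the summed rise. Primitive endoderm markers summed to 279 to 299 CPM and 921 to 935 CPM with PD03, where Col4a1 alone had a mean of 620.2 CPM, and 4 of 12 were called higher and 5 lower (3 lower without library 1 of serum + LIF). Of the defining factors, Gata6 rose (0.52 ± 0.17, a call lost without library 3 of serum + LIF at an edgeR adjusted p of 0.072), while Gata4 (-0.95 ± 0.20) and Sox7 (-2.54 ± 0.19) fell, and Sox17 was not called (-0.73 ± 0.38). Mesendoderm markers, 4 of 14 higher and 5 lower, summed to 36.2 to 43.4 and 83.7 to 92.3 CPM, with Eomes lower (-1.67 ± 0.17) and Gsc higher (3.63 ± 0.48). Neural markers, 3 of 10 higher and 6 lower, summed to 147 to 153 and 144 to 158 CPM. Pax6 was lower (-3.13 ± 0.12) and Nes higher (1.22 ± 0.062). With only the compared groups in the fit, 1 neural marker was called higher. Fibroblast markers, 5 of 12 higher and 3 lower, summed to 105 to 116 and 191 to 197 CPM, with Col1a1 higher (1.81 ± 0.13) and Thy1 lower (-2.08 ± 0.17). Of 8 tested markers of 2-cell-like cells, 7 were called lower (4 with a stricter filter on low counts), among them Zscan4c (-2.07 ± 0.33), whose copies share reads. Their summed level changed little, from 272 to 296 CPM in serum + LIF to 247 to 253 CPM with PD03. Since 6 of the 8 were at least 2-fold lower (list median -1.94), that sum lay mostly in the other members. The part of any other cell type in the results was not tested.

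Among all genes with at least 5 CPM in the higher group and no overlap, the largest rises included genes close to silent in serum + LIF. Pramel5 (chr4:144270633-144280488 on GRCm38) had no count in serum + LIF and was at 9.64, 7.28 and 6.36 CPM with PD03, at least 122-fold higher against a floor of 3 counts over the group. Dppa1 (chr11:46607772-46629261), a gene of early embryos, likewise had no count and was then at 5.22, 5.65 and 6.44 CPM, at least 93.0-fold higher. Both are protein-coding genes, and no serum + LIF library held a read of either. Fbln5, an elastic fibre protein, was at 0, 0 and 0.205 CPM and 9.79, 8.95 and 9.21 CPM (6.70 ± 0.41). Crxos, a homeobox gene of naive cells, was at 1.42, 0.904 and 1.07 CPM and 64.2, 53.8 and 53.6 CPM (5.66 ± 0.16), and Hesx1, a homeobox repressor, was at 0.782, 1.39 and 1.28 CPM and 37.9, 36.7 and 32.7 CPM (4.93 ± 0.16). Ly6a, which encodes the surface antigen SCA-1, was at 8.46, 4.80 and 6.24 CPM and 199, 182 and 169.7 CPM (4.82 ± 0.12, edgeR adjusted p = 3.0e-36). Each of these genes rose in all 3 libraries. Oas1f (5.69), Alppl2 (5.47), Adh1 (5.36), Saxo1 (4.81) and the antisense transcript Srrm4os (5.03), counted with a strand setting that was not stated, complete the highest 12 with Bhmt. The largest falls were those of Spry4, Sp5, Etv4, Gbx2, Lef1 and Egr1, given above, of Vrtn (-6.16), Trh (-4.72), Ccdc3 (-4.66), Sox3 (-4.63), Soga3 (-4.63) and Slc23a1 (-4.23). Trh, the precursor of thyrotropin-releasing hormone, was at 103, 114 and 90.2 CPM and 4.42, 3.15 and 4.02 CPM.

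By absolute level other genes led. The largest gain was in Peg10, an imprinted gene of retrotransposon origin, at 2339, 2575 and 2809 CPM in serum + LIF and 5336, 4702 and 4785 CPM with PD03 (0.94 ± 0.064, edgeR adjusted p = 4.7e-18). Igf2, an imprinted growth factor, was at 108, 116 and 148 CPM and 1220.3, 1095 and 1073 CPM (3.18 ± 0.10, edgeR adjusted p = 6.7e-32). Calcoco2, an autophagy receptor, was at 42.7, 45.2 and 43.4 CPM and 847, 799 and 816 CPM (4.23 ± 0.092, edgeR adjusted p = 4.6e-38). In each of the 3 genes the lowest PD03 library lay well above the highest serum + LIF library. Ckb, creatine kinase, rose (2.07 ± 0.053), as did Eif2s2, a subunit of an initiation factor (1.02 ± 0.042). Next to Ncl, Npm1 (-0.37 ± 0.040), Pkm (-0.41 ± 0.052) and Ldha, the largest losses were in Kpnb1, an importin (-0.48 ± 0.041), Pabpc1, which binds poly(A) tails (-0.19 ± 0.038), Hnrnpab (-0.54 ± 0.049) and the histone chaperone Nasp (-0.75 ± 0.048). At the other end, the 5 genes above 100 CPM with fitted changes nearest to 0 were Brd2, Tanc1, Cbfa2t2, Zfp57 and Arf4. Brd2, a bromodomain protein, was at 479, 496 and 499.7 CPM and 498, 488 and 489 CPM, and the groups overlapped for all 5.

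The response with LIF was then set beside that without LIF on the same gels. Without LIF 9885 genes were called, and of the 3431 genes changed at least 2-fold with LIF, 2957 were called with the same sign without it. The difference between the responses was tested as an interaction, and 193 genes passed edgeR's test (1.09% of those tested, 118 with a positive and 75 with a negative difference). That split depended on the scaling, with 88 positive and 111 negative when libraries were scaled by their totals alone and 101 and 100 with upper quartile factors. Without library 2 of stiff serum, which stood apart, 128 passed. The count also fell to 92 without library 1 of stiff serum + LIF, 110 without library 1 of stiff serum + LIF + PD03, and 115 and 113 without libraries 2 and 3 of stiff serum + PD03. Of the 193 genes, 95 had a larger fitted change with LIF, 70 a smaller one with the same sign, and 28 fitted values of opposite sign, called or not. Over all tested genes 6 were called in both settings with opposite sign.

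Among naive pluripotency genes the change with PD03 was lower on the log2 scale with LIF than without it, and 10 of 20 passed the interaction test, each with a negative difference, against 1.09% of all tested genes. Esrrb rose by 0.21 ± 0.046 with LIF and 0.69 ± 0.046 without it (difference -0.48 ± 0.064, edgeR adjusted p = 6.5e-06). Its mean level was 259.8 ± 12.4 CPM (SD, n = 3) in serum and 418 ± 13.1 CPM in serum + PD03, against 327 ± 3.41 and 378 ± 5.27 CPM with LIF. Without PD03 its level was lower in serum than in serum + LIF, and with PD03 it was the other way. For Tbx3 the levels were 70.6 ± 4.15 and 569.8 ± 12.7 CPM without LIF and 93.8 ± 1.35 and 560.1 ± 0.628 CPM with it (difference -0.44 ± 0.069, edgeR adjusted p = 9.8e-05). Jam2, a junction protein of naive cells, had the smallest p (-0.53 ± 0.064, edgeR adjusted p = 1.7e-06), and Klf4 (-0.44), Tfcp2l1 (-0.44), Prdm14 (-0.73), Tcl1 (-0.49), Klf2 (-0.35), Nanog (-0.31) and Zfp42 (-0.31) also passed. The count was 5 without library 1 of stiff serum + LIF or library 1 of stiff serum, and 6 without library 2 of stiff serum + LIF or without library 1 or 3 of stiff serum + LIF + PD03. It was also 6 with a pool term, when library 1 of stiff serum + LIF was taken as the library of the other pool.

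SRF and YAP targets showed a larger rise with LIF. Of 21 tested, 13 passed with a positive difference, against 1.09% of all tested genes in either direction. The median of the list was 1.09 with LIF and 0.67 without. Thbs1, which encodes thrombospondin, was at 51.1 ± 5.87 CPM and 90.2 ± 2.52 CPM with LIF and at 70.2 ± 2.93 CPM and 71.5 ± 1.64 CPM without (difference 0.79 ± 0.11, edgeR adjusted p = 6.5e-06). For Acta2 the means were 13.1 ± 2.26 and 172 ± 17.7 CPM with LIF and 23.3 ± 2.77 and 139.6 ± 10.7 CPM without (difference 1.14 ± 0.17, edgeR adjusted p = 2.4e-05). Flnc (0.68), Tpm1 (0.41), Tagln (0.86), Cnn2 (0.40), Acta1 (0.72), Ccn1 (0.50), Ccn2 (0.34) and Vcl (0.27) passed too. The count was 8 without library 2 of stiff serum, library 2 of stiff serum + LIF or library 1 of stiff serum + LIF + PD03. Outside these lists, Peg10 (0.67 ± 0.090) and the tight junction gene Cgn (0.66 ± 0.089) had among the smallest p. Cgn was not called with LIF (0.0094 ± 0.063) and fell without it (-0.65 ± 0.063). Sema6a, a semaphorin, fell by less with LIF (-0.45 ± 0.10) than without (-1.48 ± 0.10). Of the 20 ERK feedback inhibitors none passed in edgeR, with 5 at an unadjusted p under 0.05, 1 called by DESeq2 and 2 called by edgeR without the filter on low counts. With and without LIF the log2 fold changes were -7.82 ± 0.13 and -7.56 ± 0.14 for Spry4 and -3.15 ± 0.10 and -3.14 ± 0.10 for Dusp6.

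**Figure D4:**
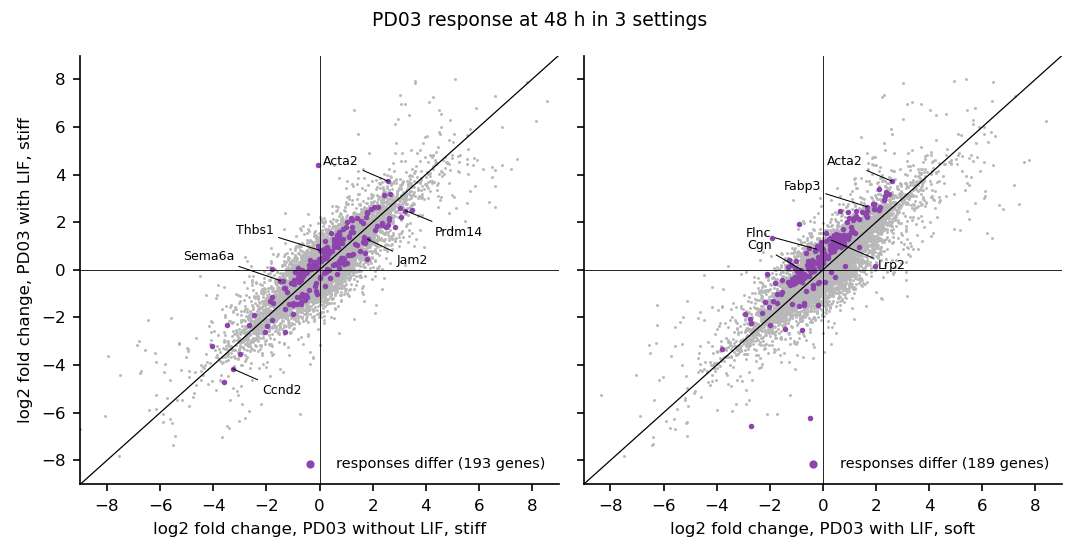
The log2 fold change of each tested gene with PD03 in serum + LIF on stiff gels (y axis) against that without LIF on stiff gels (left, x axis) and that with LIF on soft gels (right, x axis), with the line of equal change. Purple points passed the interaction test, 193 on the left and 189 on the right. Axes end at 9, which leaves out 4 genes on the left and 2 on the right, and both panels share the libraries of the y axis.

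On soft gels with LIF 9626 genes were called with PD03, and 2883 of the 3431 genes changed at least 2-fold on stiff gels were called with the same sign. The interaction with stiffness passed edgeR's test for 189 genes (1.07%), 168 with a positive difference, that is, higher with PD03 on stiff gels than the soft response would give, and 21 with a negative one. Without library 2 of soft serum + LIF, which stood apart, 114 passed. Of the 189 genes, 98 had a larger fitted change on stiff gels, 45 a smaller one with the same sign, and 46 fitted values of opposite sign, called or not. Over all tested genes 14 were called on both gels with opposite sign. The soft libraries of this comparison all came from 1 sequencing pool that held none of the stiff ones, so a shift common to a pool drops out of the soft response, while stiffness and pool cannot be told apart in levels. With a term for the pool of the remaining serum + LIF library, an alternative chosen after seeing the data, 135 to 179 genes passed, depending on which column that library is taken to be. This test and that for LIF also share the 6 libraries of the main comparison.

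Cytoskeletal genes were again among those that differed, with 9 of the 21 SRF and YAP targets past the test, against 1.07% of all tested genes. All 9 had a positive difference, as did 168 of the 189 genes that passed. The median of the list was 0.80 on soft gels. Flnc, a filamin of muscle, was at 78.1 ± 5.99 CPM and 142 ± 3.17 CPM on stiff gels and at 52.0 ± 5.85 CPM and 44.3 ± 3.597 CPM on soft gels (difference 1.10 ± 0.10, edgeR adjusted p = 7.5e-11). Its log2 fold change was 0.86 ± 0.067 on stiff and -0.23 ± 0.074 on soft gels. Acta2 rose on both, to 172 ± 17.7 CPM on stiff and 47.4 ± 7.41 CPM on soft gels (difference 1.13 ± 0.20, edgeR adjusted p = 3.0e-04), and Thbs1 differed as well (0.84 ± 0.11). Lrp2, the endocytic receptor megalin, had the smallest p, at 207 ± 15.7 CPM and 489.5 ± 13.9 CPM on stiff and 188 ± 8.75 CPM and 236 ± 11.1 CPM on soft gels (difference 0.91 ± 0.080, edgeR adjusted p = 4.8e-11). Fabp3, a fatty acid binding protein, rose by 2.65 ± 0.065 and 1.67 ± 0.063 (difference 0.97 ± 0.088). Amot, a scaffold that binds YAP (1.01 ± 0.10), Sh3pxd2a, an adaptor of invadopodia (0.74 ± 0.074), and the imprinted Peg3 (0.77 ± 0.078) complete the 6 genes with the smallest p. Sh3pxd2a rose on stiff gels (0.56 ± 0.052) and fell on soft gels (-0.18 ± 0.053). The keratins differed too, with Krt18 at 38.4 ± 6.002 CPM and 171 ± 5.32 CPM on soft gels (difference 0.49 ± 0.10, edgeR adjusted p = 0.0042). Of the 12 trophoblast markers 6 passed, against 1.07% of all tested genes. That count was 3 without library 1 of soft serum + LIF and 2 without library 2. Of the 20 naive pluripotency genes none passed in edgeR, with 2 at an unadjusted p under 0.05 and 0 called by DESeq2. Nanog rose by 1.84 ± 0.058 on stiff and 1.84 ± 0.058 on soft gels, and Tbx3 by 2.58 ± 0.050 and 2.52 ± 0.050. Of the ERK feedback inhibitors none passed either, with 5 at an unadjusted p under 0.05 and 0 called by DESeq2. On soft gels Spry4 was at -7.48 ± 0.13 and Dusp6 at -2.74 ± 0.10.

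**Figure D5:**
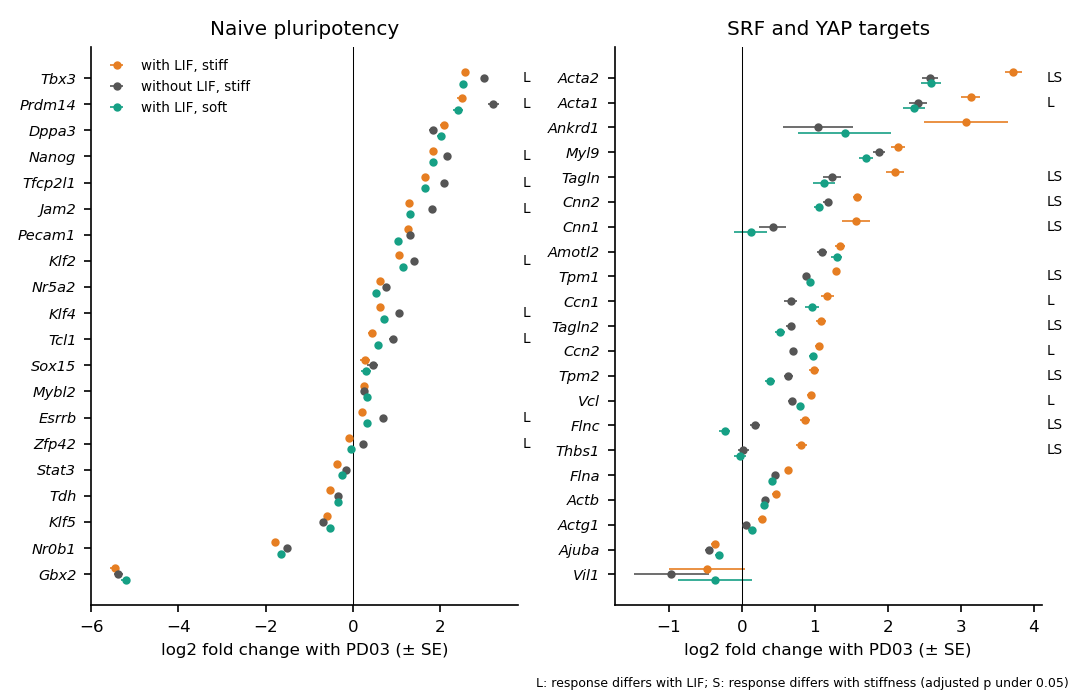
Log2 fold change with PD03 (± SE) of the tested naive pluripotency genes (left) and SRF and YAP targets (right) in 3 settings, stiff gels with LIF (orange), stiff gels without LIF (grey) and soft gels with LIF (green). L marks genes whose response differed with LIF and S those whose response differed with stiffness at an adjusted p under 0.05. On the left 10 genes carry L and none S, and on the right 13 carry L and 9 S.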

How the data were processed

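The deposited file held raw read counts per Ensembl gene for 36 libraries of mESCs. Per the labels and the study's methods, the authors aligned reads to GRCm38 with STAR 2.5.2a and counted them with htseq-count on Ensembl annotation. The strand setting and the treatment of reads with several matches are not given in the sources used here. Library preparation was named differently in the labels and the methods.

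Columns carried group names without replicate numbers, so library numbers follow column order and only name a library. Low genes were removed by edgeR's filterByExpr with the groups as design, leaving 17702 of 49671 identifiers and 99.9207% of counts. Libraries were scaled with TMM factors, and 1 coefficient per group was fitted over 36 libraries and 11 groups with edgeR 4.0.16 (R 4.3.3) and its quasi-likelihood test. Differences between responses were contrasts of the same fit. P-values were adjusted by Benjamini-Hochberg over all genes kept, with a threshold of 0.05. DESeq2 1.42.0, other scalings and filters, the groups of a contrast alone, a pool term and leaving out each library were alternatives.

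The gene lists, named genes and comparisons were chosen with earlier results of these data known. Named genes were list members, the 12 with the largest fold change in each direction (mean of at least 5 CPM in the higher group, no overlap of groups, no Gm, Rik or pseudogene models), the 8 per direction with the largest CPM difference, the 6 with the smallest p per interaction, and the 5 above 100 CPM nearest to no change. A few genes that this rule names are not reported here. Names and gene positions came from a GENCODE annotation of GRCm38, and upstream sequences from RefSeq on GRCm38.p6, with a window for 11989 tested genes. No pair of libraries within the 2 main groups agreed within sampling noise (chi-square per gene of 3.20 to 5.06). Total counts limit precision at low levels, and floors cover counting error only.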

Additional observations from a re-analysis of the deposited data

Results flagged for a closer look

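Differences between responses were tested on the interaction, with the log2 difference given as the response with LIF on stiff gels minus the other response. In all 193 genes differed between stiff gels with and without LIF, and 189 between stiff and soft gels with LIF. The cause was not tested.

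For the comparison with and without LIF, negative differences were those of Trh (-1.13), Fgf10 (-1.07), Ccnd2 (-0.89), Prdm14 (-0.73), Jam2 (-0.53), Tcl1 (-0.49), Esrrb (-0.48), Tfcp2l1 (-0.44), Klf4 (-0.44), Tbx3 (-0.44), Kit (-0.43), Socs3 (-0.42), Klf2 (-0.35), Zfp57 (-0.34), Zfp42 (-0.31), Nanog (-0.31) and Il6st (-0.25). Ccnd2, a D-type cyclin, was at 72.3 ± 4.85 CPM in serum and 7.43 ± 0.575 CPM in serum + PD03, and at 85.2 ± 7.52 and 4.76 ± 0.470 CPM with LIF. Trh, the hormone precursor, was at 81.1 ± 3.42 and 6.67 ± 0.329 CPM without LIF and 102 ± 11.7 and 3.86 ± 0.652 CPM with it. For both, the group with LIF and without PD03 was the highest of the 4.

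Positive differences with LIF were those of Acta2 (1.14), Sema6a (1.02), Tagln (0.86), Pou3f1 (0.84), Col1a1 (0.82), Thbs1 (0.79), Acta1 (0.72), Flnc (0.68), Peg10 (0.67), Cgn (0.66), Krt18 (0.59), Krt8 (0.59), Igf2 (0.53), Peg3 (0.52), Lrp2 (0.50), Ccn1 (0.50), Anxa2 (0.47), Tpm1 (0.41), Amot (0.41), Cnn2 (0.40), Epcam (0.37), Dnmt3b (0.36), Ccn2 (0.34) and Vcl (0.27). Dnmt3b, the de novo methyltransferase, changed by -2.31 with LIF and -2.67 without.

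For the comparison of stiff with soft gels, the differences were 1.13 for Acta2, 1.10 for Flnc, 1.01 for Amot, 0.97 for Fabp3, 0.97 for Tagln, 0.91 for Lrp2, 0.84 for Thbs1, 0.83 for Cgn, 0.77 for Peg3, 0.74 for Sh3pxd2a, 0.72 for Fosl2, 0.68 for Igf2, 0.64 for Peg10, 0.59 for Krt8, 0.55 for Anxa2, 0.54 for Plaur, 0.53 for Cnn2, 0.49 for Krt18, 0.36 for Tpm1, 0.34 for Epcam, 0.29 for Itgb1 and -0.35 for Utf1. The soft libraries came from another sequencing pool than the stiff ones, and a shift common to that pool drops out of the soft response. The part of the pool of 1 stiff serum + LIF library in these differences was tested only with a pool term. Igf2 was at 106 ± 17.3 and 598 ± 62.6 CPM on soft gels against 124 ± 21.2 and 1129 ± 79.5 CPM on stiff gels, so that the growth factor rose in both.

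Of the 41 named genes that differed with LIF, 21 passed in all 24 alternatives, and of the 22 that differed with stiffness 14 passed in all 24, each with its sign kept. The calls were lost most often for Il6st, which passed in 6 of 24, Nanog in 8, Tcl1 and Vcl in 11, and for Itgb1, which passed in 10 of 24.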

How the results depend on the processing

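The 9945 genes called in the main comparison stayed within 1.5 times under all 18 alternatives, at 9219 to 9364 when a library was left out, 9150 to 9213 with a pool term and 9395 to 10137 otherwise. The 3431 genes changed at least 2-fold were 3360 to 3390 when a library was left out and 1923 in a test against a 2-fold change (1190 higher, 733 lower). The 193 genes of the LIF interaction ranged from 92 to 187 when a library was left out, fell to 111 with the first pool taken as library 1 of stiff serum + LIF, and were 188 to 278 otherwise, with 251 called by DESeq2. The 189 genes of the stiffness interaction ranged from 114 to 256 when a library was left out, and 135 to 179 with a pool term, chosen after seeing the data. At an unadjusted p under 0.05, 1757 and 1689 genes passed the 2 interactions. The cause was not tested. For 225 named genes, the main comparison was repeated with RLE size factors, with DESeq2 and without each library of the main groups. The other scalings, the filters and the pool term were not tried on single genes there. Of these 1800 repeats, 1792 kept direction and side of the threshold. The exceptions, none of which turned the direction, were Lamb1, Gata6, Mki67 (adjusted p = 0.033 and 0.050 without library 2 of serum + LIF or of serum + LIF + PD03) and Lifr (adjusted p = 0.035 in DESeq2). No paired analysis was possible because the columns carry no replicate numbers. Low counts limit calls under 1 CPM, where 25.6% of genes were called. Which serum + LIF column came from the other pool, and which preparation kit was used, could not be settled from the labels.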
